A study of Mus musculus with 7 samples.

Results

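The small leucine-rich proteoglycans (SLRPs) examined here were 10 genes: Dcn, Bgn, Aspn, Lum, Fmod, Prelp, Kera, Omd, Ogn and Podn. They were chosen by name. They and the gene lists below were chosen with earlier results of these data known, so their shares of calls are not independent of the data. Every non-control probe of a mouse expression array whose gene name or RefSeq symbol is a member was taken. This gave 10 probes, 1 for each gene, of 39429 probes on the array. The RNA came from quadriceps muscle of C57BL/6 mice at 3 months of age by the sample labels (90 days by the series design), with 1 mouse per single-dye Agilent array. The WT group held 4 mice and the AR113Q group 3. AR113Q mice are a knock-in model of spinal and bulbar muscular atrophy (SBMA), in which a humanized androgen receptor carries an expanded CAG repeat. The knock-in is carried in the germline and is not restricted to muscle, and both groups are C57BL/6. The labels and legends call the controls WT, the results text of the study describes a humanized knock-in control with a short repeat, and the design text adds the suffix NCD to AR113Q without explaining it; these wordings could not be reconciled here. The labels do not give the sex of the mice, and the reporting form of the study states that its mice were male.

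SLRPs are secreted proteins built around leucine-rich repeats, and most carry glycosaminoglycan chains. They bind collagen fibrils and set fibril diameter and spacing, and several of them also hold growth factors of the TGF-beta family in the matrix. In skeletal muscle they lie in the connective tissue around fibres and bundles and in tendon, and fibroblast-like interstitial cells are a major source. Class I (Dcn, Bgn, Aspn) includes carriers of chondroitin or dermatan sulfate, class II (Lum, Fmod, Prelp, Kera, Omd) is known for keratan sulfate, and Ogn and Podn belong to classes III and V.

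The arrays read each transcript through a probe of 60 bases. The probes of Dcn and Bgn, closely related class I members that differed in direction and were not called, are shown 5′ to 3′ because they are the sequences measured. The Dcn probe lies at chr10:96980233-96980292 and the Bgn probe at chrX:70738554-70738613, both on the plus strand of mm9 as the array annotation lists it; whether a probe is exonic or in a UTR was not looked up, since no annotation of mm9 was used here. No other probe on the array shared a run of 20 bases with any of the 10 SLRP probes.
Dcn probe: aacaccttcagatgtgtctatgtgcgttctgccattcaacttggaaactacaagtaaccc
Bgn probe: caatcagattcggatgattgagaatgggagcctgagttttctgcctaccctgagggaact

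The promoters of Ogn, Kera and Fmod, which were downregulated, are shown beside that of Bgn, which was not called. Each is the 300-base RefSeq window around the annotated start on GRCm38.p6, all on the plus strand: Ogn at chr13:49607765-49608064, Kera at chr10:97606955-97607254, Fmod at chr1:134037004-134037303 and Bgn at chrX:73483351-73483650. The Kera gene as a whole is listed from chr10:97606962, so nearly all of its window, with the marked matches, lies inside the annotated gene. Capitals mark matches, on either strand, to TATAAA (the TATA box core), CCAAT (the CCAAT box), AGAACA (a half-site of steroid receptor elements) or TGANTCA (the AP-1 site).
Ogn: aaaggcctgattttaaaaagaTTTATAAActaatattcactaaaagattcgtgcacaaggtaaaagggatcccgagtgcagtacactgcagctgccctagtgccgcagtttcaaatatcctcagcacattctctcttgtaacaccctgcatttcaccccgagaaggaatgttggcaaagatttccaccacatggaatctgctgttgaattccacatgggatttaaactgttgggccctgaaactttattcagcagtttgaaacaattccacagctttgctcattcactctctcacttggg
Kera: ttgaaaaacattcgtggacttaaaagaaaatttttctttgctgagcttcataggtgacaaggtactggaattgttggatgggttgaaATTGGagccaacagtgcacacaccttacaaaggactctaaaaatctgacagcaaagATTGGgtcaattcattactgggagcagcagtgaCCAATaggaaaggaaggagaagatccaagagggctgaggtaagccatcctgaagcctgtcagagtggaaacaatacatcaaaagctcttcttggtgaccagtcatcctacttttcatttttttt
Fmod: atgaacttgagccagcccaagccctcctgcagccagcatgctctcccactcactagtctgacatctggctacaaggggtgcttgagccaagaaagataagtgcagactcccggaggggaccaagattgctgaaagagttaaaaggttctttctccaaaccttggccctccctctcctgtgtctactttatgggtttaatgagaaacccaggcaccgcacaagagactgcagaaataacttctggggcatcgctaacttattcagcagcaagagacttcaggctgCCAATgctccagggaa
Bgn: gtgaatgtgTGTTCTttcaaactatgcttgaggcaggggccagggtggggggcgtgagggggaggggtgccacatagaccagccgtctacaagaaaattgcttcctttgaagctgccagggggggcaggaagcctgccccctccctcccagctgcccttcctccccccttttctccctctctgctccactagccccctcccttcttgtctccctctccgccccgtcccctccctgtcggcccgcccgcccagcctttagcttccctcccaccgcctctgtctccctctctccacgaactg

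Promoter windows were found for 8 of the 10 genes. Dcn and Lum were not in the table used. TATAAA was present for 2 of the 8 (Aspn and Ogn; 13.6% of 32851 mouse promoters hold it) and CCAAT for 4 (Aspn, Fmod, Prelp and Kera; 37.4%). AGAACA was present for 1 (Bgn; 19.0%) and TGANTCA for 0 (7.81%). The windows of Kera and Prelp lie nearly or wholly inside the annotated gene. These matches describe the letters in the windows only.

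The share of probes well above background ranged from 47.6% to 55.8% over the arrays, with 0 saturated spots. Of 5 slides, slide 2 was the only one with arrays of both genotypes, namely WT replicate 2 and AR113Q replicate 1. AR113Q replicate 1 had the lowest share of probes above background, and it was the lowest AR113Q array for 8 of the 10 SLRP probes, so values without it are given where they move a result. All 9 muscle fibre markers examined were well above background on all 7 arrays. Levels are log2 of the quantile-normalized intensity, the fold change is AR113Q minus WT on that scale, and a gene was called at a limma adjusted p of at most 0.05 (Benjamini-Hochberg, over 20991 probes) and a log2 fold change of 1 or more in either direction. Levels of different probes are not comparable with each other. In whole muscle, fewer cells of a type cannot be told apart from less RNA per cell.

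Of the 10 SLRP genes, 5 were downregulated in AR113Q quadriceps (Lum, Fmod, Kera, Ogn and Podn) and 0 were upregulated; Dcn alone was higher at an unadjusted limma p of at most 0.05. Among all probes tested, 12.6% were called lower, 12.2% higher and 24.8% in either direction. All 5 calls were lost with slide as a fixed effect, which rests on the 2 arrays of slide 2 (adjusted p 0.0508 to 0.0956). The median log2 fold change of the 10 members was -1.34, against 0.01 over all probes tested. The downregulated genes were 3 of the 5 class II members and the class III and class V members, while 0 of the 3 class I members were called (at an unadjusted limma p of at most 0.05, Bgn and Aspn were lower and Dcn was higher). Of the 10 probes, 8 were well above background on all 7 arrays. The values of the genotypes did not overlap for 6 members, namely Dcn with AR113Q higher and the 5 downregulated genes with AR113Q lower, against 49.5% of all probes without overlap and 24.2% lower without overlap.

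**Figure D1:**
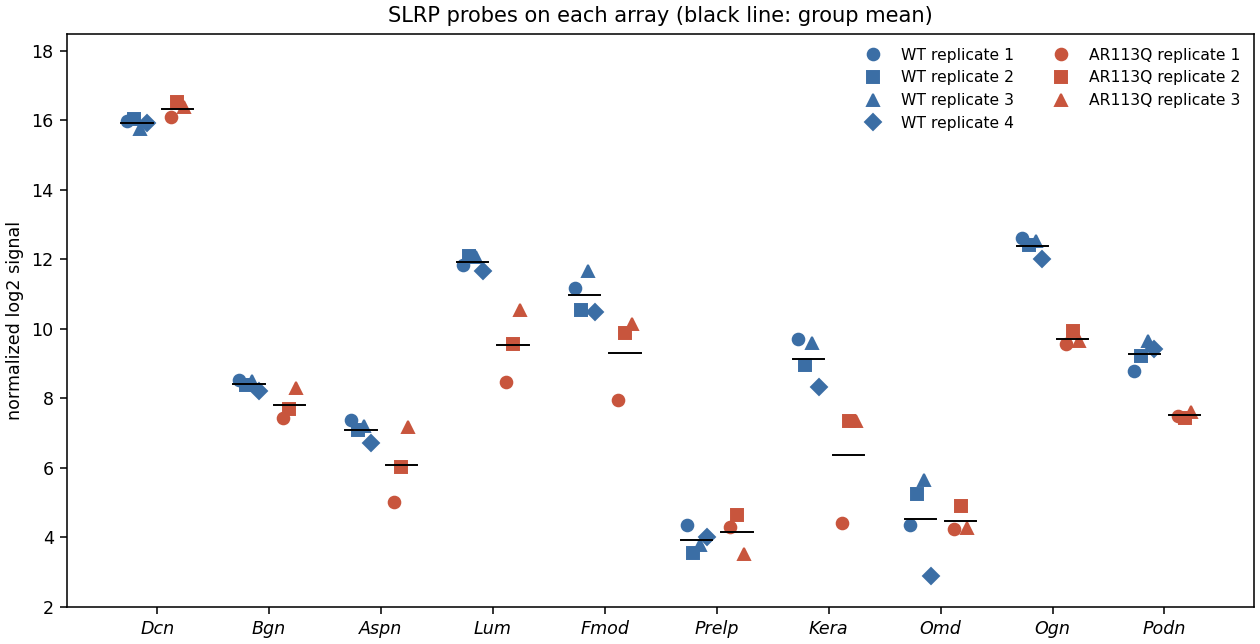
Normalized log2 signal (y axis) of the 10 SLRP probes (x axis) on the 4 WT (blue) and 3 AR113Q (red) arrays, with the replicate shown by the symbol and the group mean by a black line. All AR113Q points lie below all WT points for Lum, Fmod, Kera, Ogn and Podn, and above them for Dcn, whose means are 15.93 and 16.34; levels are not comparable between probes.

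Dcn encodes decorin, the prototype SLRP, which binds type I collagen and neutralizes TGF-beta and myostatin. The Dcn probe read 15.98, 16.04, 15.75 and 15.93 on the WT arrays and 16.11, 16.52 and 16.40 on the AR113Q arrays. Every AR113Q array lay above every WT array, although the gap between AR113Q replicate 1 and WT replicate 2 was small. The group means were 15.93 ± 0.12 (SD, n = 4) and 16.34 ± 0.21 (SD, n = 3). The log2 fold change was 0.41 with a standard error of 0.16 (95% interval 0.04 to 0.79), and Dcn was not called (limma adjusted p = 0.0706). The difference was 0.08 with arrays scaled to their 75th percentile and 0.07 between the 2 arrays of slide 2. Its adjusted p was at most 0.05 in 6 of 21 alternative settings, and the log2 fold change stayed under 1 in all 21. In background-subtracted intensity, before normalization, the probe read 45986 to 70248 in WT and 68583 to 102560 in AR113Q mice, and these ranges overlapped.

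Bgn encodes biglycan, the closest relative of decorin, which is X-linked and also signals through Toll-like receptors. Its probe read 8.54, 8.39, 8.48 and 8.22 in WT and 7.43, 7.69 and 8.31 in AR113Q mice. AR113Q replicate 3 lay within the WT range and the other AR113Q arrays lay below it. Bgn differed by -0.60 on the log2 scale with a standard error of 0.22 and was not called (limma adjusted p = 0.0594). It was -0.33 with the authors' normalized values, -0.41 with normexp background correction, -0.40 without AR113Q replicate 1, -0.84 without AR113Q replicate 3 (limma adjusted p = 0.00668) and -0.96 between the arrays of slide 2. Its adjusted p was at most 0.05 in 7 of 21 alternative settings, and the log2 fold change stayed between -1 and 0 in all 21.

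Aspn encodes asporin, a class I protein without a typical glycosaminoglycan chain that binds collagen and TGF-beta. Its probe, at chr13:49662479-49662538 on mm9, read 7.37, 7.09, 7.20 and 6.71 in WT and 5.0, 6.02 and 7.17 in AR113Q mice. The WT arrays were close together, while the AR113Q arrays spread from far below the WT range to within it (SD 0.28 and 1.09). Aspn differed by -1.03 on the log2 scale with a standard error of 0.45 and was not called (limma adjusted p = 0.0955). Without AR113Q replicate 1 the value was -0.49, and without AR113Q replicate 3 it was -1.59 and called (limma adjusted p = 0.0062). It was also called with array weights (-1.07, limma adjusted p = 0.044). The value was -0.30 with the authors' values, -0.46 with normexp correction, -0.48 without background subtraction and -2.09 between the arrays of slide 2, and was not called in any of these.

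Lum encodes lumican, a keratan sulfate proteoglycan that controls the diameter of collagen fibrils. Its probe, at chr10:97035210-97035269 on mm9, read 11.84, 12.10, 12.06 and 11.66 in WT and 8.46, 9.57 and 10.55 in AR113Q mice. The lowest WT array lay 1.12 above the highest AR113Q array. The mean fell from 11.91 ± 0.21 (SD, n = 4) to 9.53 ± 1.04 (SD, n = 3), a log2 fold change of -2.39 with a standard error of 0.42 (limma adjusted p = 0.00289). The AR113Q level was 19.1% of WT. Lum stayed called without AR113Q replicate 1 (-1.85, limma adjusted p = 0.00372), and the arrays of slide 2 differed by -3.65.

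Fmod encodes fibromodulin, a close relative of lumican that is abundant in tendon. Its probe, at chr1:135943998-135944057 on mm9, read 11.18, 10.54, 11.68 and 10.47 in WT and 7.94, 9.88 and 10.12 in AR113Q mice. The groups did not overlap, but AR113Q replicates 2 and 3 lay close to the lowest WT arrays. The log2 fold change was -1.65 with a standard error of 0.54 (limma adjusted p = 0.0368), which is 3.14-fold lower. This call was lost in 5 of 21 alternative settings, against 1 (slide as a fixed effect) for each of the other 4 called members. It was lost without AR113Q replicate 1 (-0.97, limma adjusted p = 0.0718), without WT replicate 1 (-1.58, 0.0799) or replicate 3 (-1.41, 0.0808), with no filter on dim probes (adjusted p = 0.0967) and with slide as a fixed effect (-2.60, adjusted p = 0.0956).

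Kera encodes keratocan, a keratan sulfate proteoglycan best known from the cornea and also made in tendon. Its probe, at chr10:97076230-97076289 on mm9, was the only SLRP probe with more than 1 spot and had 10 on each array. It read 9.70, 8.95, 9.60 and 8.32 in WT and 4.42, 7.36 and 7.34 in AR113Q mice. AR113Q replicates 2 and 3 were alike and lay about 1 below the lowest WT array, whereas AR113Q replicate 1 was far lower. On that array the 10 spots held intensities of 10.8 to 27.4 with a coefficient of variation of 27.5%, against 4.99% to 8.09% on the other 6 arrays. The log2 fold change was -2.77 with a standard error of 0.71 (limma adjusted p = 0.0148). Its size depended on that array and on how the background was treated: it was -1.76 without AR113Q replicate 1, -1.68 with normexp correction, -1.78 without background subtraction and -1.33 with the authors' values, all still called, and -4.54 between the arrays of slide 2.

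Prelp encodes a heparin-binding SLRP of basement membranes and connective tissue, and Omd encodes osteomodulin, which is typical of bone. The Prelp probe, which was designed on a cDNA clone and not on a RefSeq transcript, was well above background on 2 WT arrays and 1 AR113Q array. It read 4.34, 3.54, 3.77 and 4.01 in WT and 4.30, 4.63 and 3.52 in AR113Q mice. Omd was well above background on 3 WT and 2 AR113Q arrays and read 4.36, 5.24, 5.65 and 2.89 in WT and 4.22, 4.90 and 4.25 in AR113Q mice. For both genes the genotypes overlapped. The log2 fold changes were 0.23 (standard error 0.30, limma adjusted p = 0.554) for Prelp and -0.08 (standard error 0.59, limma adjusted p = 0.930) for Omd. The 95% interval for Omd ran from -1.44 to 1.29, so a change of any size within it was not excluded. The probes lie at chr1:135806855-135806914 (Prelp) and chr13:49687847-49687906 (Omd) on mm9.

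Ogn encodes osteoglycin, also called mimecan, a class III SLRP involved in collagen fibril assembly. Its probe, at chr13:49719549-49719608 on mm9, read 12.63, 12.40, 12.52 and 12.00 in WT and 9.55, 9.92 and 9.65 in AR113Q mice. Both groups were tight, and the gap of 2.07 between the lowest WT and the highest AR113Q array was the widest of the 10 members. The mean fell from 12.38 ± 0.28 (SD, n = 4) to 9.71 ± 0.19 (SD, n = 3). The log2 fold change was -2.68 with a standard error of 0.20 (limma adjusted p = 0.000103), or 6.39-fold lower. Across 21 alternative settings it stayed between -2.85 and -2.43.

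Podn encodes podocan, a class V SLRP that binds collagen and restrains smooth muscle cell growth. Its probe, at chr4:107687484-107687543 on mm9, read 8.79, 9.20, 9.64 and 9.40 in WT and 7.47, 7.44 and 7.60 in AR113Q mice. The AR113Q arrays lay within 0.2 of each other, and all were below the WT arrays. This gave a log2 fold change of -1.76 with a standard error of 0.21 (limma adjusted p = 0.000596), or 3.38-fold lower. AR113Q replicate 1, the lowest array for Kera, Lum, Fmod and Aspn, was not the lowest for Podn, and the difference between the arrays of slide 2, -1.73, was close to that over all arrays.

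**Figure D2:**
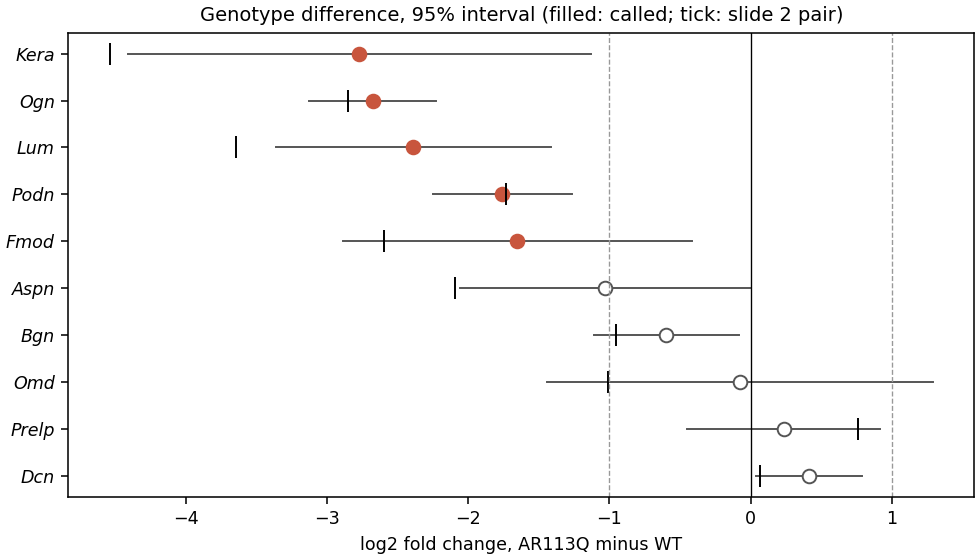
Log2 fold change, AR113Q minus WT (x axis), of each SLRP gene (y axis) with its 95% interval; filled points were called, dashed lines mark the fold threshold and ticks give the difference between the 2 arrays of slide 2. Kera (-2.77), Ogn (-2.68), Lum (-2.39), Podn (-1.76) and Fmod (-1.65) are filled, and Dcn (0.41) lies at the other end.

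The difference of each member from Dcn was also taken within each array, which removes any scaling shared by both probes. For 7 of the 9 other members, the log2 difference from Dcn was lower on every AR113Q array than on every WT array. These were Bgn (change of the difference -1.01), Aspn (-1.44), Lum (-2.80), Fmod (-2.07), Kera (-3.19), Ogn (-3.09) and Podn (-2.17). Each had p = 0.0571 in the two-sided exact permutation test, the smallest value that 35 splits of 4 and 3 arrays allow, or 0.0734 after Benjamini-Hochberg adjustment over 9 pairs, so this design could not reach 0.05. For Prelp (-0.18, exact p = 0.629) and Omd (-0.49, exact p = 0.571) the ranges overlapped. The change of Dcn itself was part of each of these values: over the 20990 other probes tested, the difference from Dcn was lower without overlap for 38.3%, and its median change was -0.40.

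The spread within a genotype was shared by several members. AR113Q replicate 1 deviated from its group mean by -1.95 for Kera, -1.37 for Fmod, -1.07 for Lum, -1.06 for Aspn and -0.38 for Bgn, but only by -0.16 for Ogn and -0.03 for Podn. AR113Q replicate 3 deviated upward by 1.11 for Aspn, 1.02 for Lum, 0.97 for Kera, 0.81 for Fmod and 0.50 for Bgn, so for Aspn, Lum and Bgn both ends of the group were about as far from its mean. Among WT arrays, replicate 4 was the lowest for 7 of the 10 members. The standard deviation of the AR113Q arrays exceeded that of the WT arrays for Dcn, Bgn, Aspn, Lum, Fmod, Prelp and Kera, and was smaller for Omd, Ogn and Podn.

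The genes with signals most like Dcn over the 7 arrays, among 13678 other genes well above background on all of them, were Riok1 (Pearson r = 0.98), Ociad1 (0.98), Tent5a (0.98), Spidr (0.97) and Nup98 (0.97). After the mean of each genotype was removed they were Rgs10 (0.99), the unnamed probe A_55_P2133661 (0.98), F3 (0.98), Syk (0.97) and Arhgap45 (0.97). Over the same 7 arrays the r with Dcn was negative for the 7 members compared, from -0.86 for Podn and -0.79 for Ogn to -0.32 for Aspn. After the genotype means were removed it was -0.40 for Podn and positive for the other 6, from 0.30 for Ogn to 0.55 for Lum and 0.63 for Kera. These values describe 7 points that share their arrays, and the top values were picked from all 13678 genes.

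Several SLRP genes are neighbours in the genome. On GRCm38.p6, Dcn, Lum, Kera and Epyc are the 4 protein-coding genes of a 202.4 kb stretch of chromosome 10, Ecm2, Aspn, Omd and Ogn lie in 119.7 kb of chromosome 13 with Cenpp, and Optc, Prelp and Fmod lie in 151.1 kb of chromosome 1. Calls within a stretch were mixed. Lum, which lies 47.34 kb from Dcn, and Kera, a further 34.26 kb away, were downregulated, whereas Dcn read 0.41 and was not called. On chromosome 13, Ecm2 (-3.48) and Ogn (-2.68) were downregulated, and Aspn (-1.03) and Omd (-0.08) between them were not called. On chromosome 1, Fmod (-1.65) was downregulated and Prelp (0.23) was not called. Epyc and Optc had no probe above background on enough arrays to be tested.

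**Figure D3:**
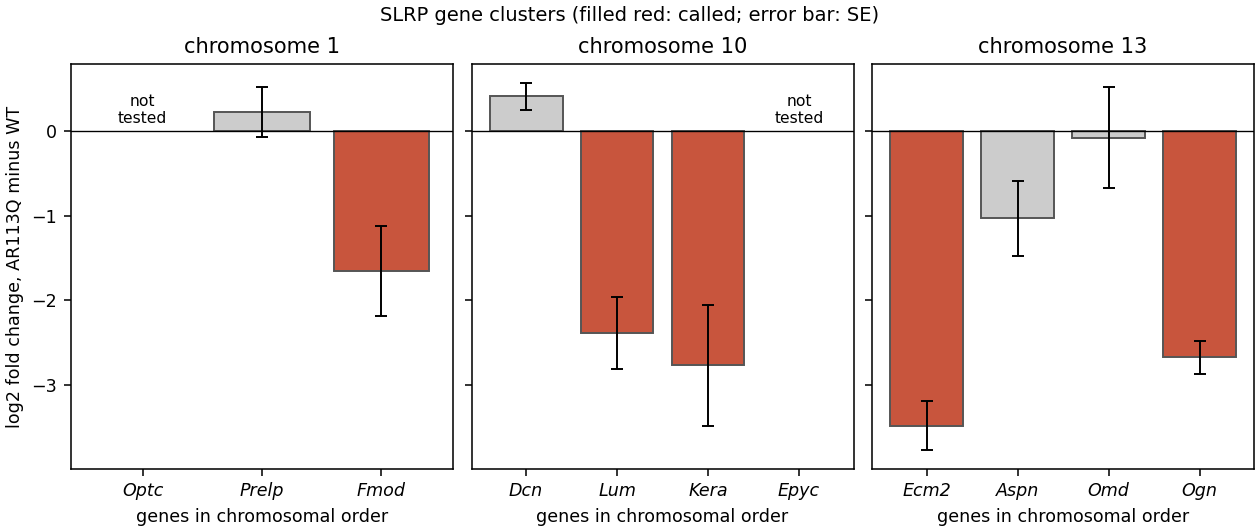
Log2 fold change, AR113Q minus WT (y axis), of SLRP genes in their order along 3 chromosome stretches (x axis); red bars were called and error bars are standard errors. Dcn (0.41) stands next to Lum (-2.39) and Kera (-2.77), and Omd (-0.08) next to Ogn (-2.68).

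Among the other SLRP genes, 5 of 9 could be tested and 3 of them were downregulated, beside 13.1% of all 16577 genes tested when each gene is read from its brightest kept probe. Ecm2, a matrix protein related to decorin, read -3.48 (standard error 0.29, limma adjusted p = 0.000155) and was well above background on 2 of the 3 AR113Q arrays; with the authors' values it was -0.96 and not called. Nepn, which encodes nephrocan, was at -2.19 (limma adjusted p = 0.000966) and well above background on 1 of the 3 AR113Q arrays, so the size of its difference was not well measured. It was not called with normexp correction (-0.48), without background subtraction (-0.46) or with the authors' values (-0.25). Chadl, a chondroadherin-like protein, was at -1.85 (limma adjusted p = 0.000476). Chad (-1.74, limma adjusted p = 0.169) and Tsku (-0.22, limma adjusted p = 0.620) were not called, and Epyc, Optc, Nyx and Podnl1 were not tested. With the authors' values, or with probes kept only if above background on all 7 arrays, 1 of these genes was called.

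Collagen fibrils are the main partner of the SLRPs. Of 8 fibrillar collagen genes tested, 7 were downregulated and 0 upregulated (Col11a2 alone was higher at an unadjusted limma p of at most 0.05), beside 13.1% of all genes called lower and 11.2% higher, and the median log2 fold change was -2.81, against -0.01 over all genes tested. Col3a1, the type III collagen chain of reticular connective tissue, changed most (-4.62, standard error 0.33, limma adjusted p = 0.000101), followed by Col5a3, a type V chain (-3.50, limma adjusted p = 0.000398). The type I chains Col1a1 (-3.27) and Col1a2 (-2.25), named after their values were seen as the principal ligands of decorin, were also called. Col11a2 read 0.57 and was not called (limma adjusted p = 0.0957). Of the 7, Col5a2 was well above background on 0 and Col24a1 on 2 of the 3 AR113Q arrays, so both were tested through their WT signal. The count was 7 with each array left out in turn and 5 with normexp correction, without background subtraction, with the authors' values or with probes kept only if above background on all 7 arrays.

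Genes that build the glycosaminoglycan chains were in part lower. For chondroitin and dermatan sulfate, 16 of 22 genes were tested, of which 4 were lower, 1 was higher and 11 were not called (median -0.29), beside 13.1% of all genes called lower and 11.2% higher. B3galt6, which adds a galactose of the linker to the core protein, was well above background on 4 of 4 WT and 0 of 3 AR113Q arrays, and its level was at least 2.9-fold lower (limma adjusted p = 0.000102). Such a bound sets the WT mean against the AR113Q mean of, on each array, the larger of the probe's own signal and the dimmest signal flagged as well above background. B3galt6 was tested through its WT signal, and it was not called with normexp correction (-0.42), without background subtraction (-0.36) or with the authors' values (-0.20). Chst7, a chondroitin 6-O-sulfotransferase, was at -1.62 (limma adjusted p = 0.00142), and Chpf2, a chondroitin polymerizing factor, was upregulated (1.23, limma adjusted p = 0.00305). The count of 4 lower fell to 1 with normexp correction or without background subtraction and to 0 with the authors' values. For keratan sulfate, 7 of 10 genes were tested and 2 were lower (median -0.38), namely Chst1, the keratan sulfate sulfotransferase (-1.44, limma adjusted p = 0.00461), and St3gal1, a sialyltransferase (-1.18, limma adjusted p = 0.00484), which fell just short of the fold threshold without AR113Q replicate 1 (-0.96, limma adjusted p = 0.0129).

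Of 18 tested growth factors and receptors that SLRPs bind, 3 were lower and 4 higher, with a median of 0.18, beside 13.1% of all genes called lower and 11.2% higher, so the share lower was near that of all genes. Ccn4 (Wisp1), a matricellular protein bound by decorin and biglycan, was well above background on 4 of 4 WT and 0 of 3 AR113Q arrays. It was thus tested through its WT signal, and its level was at least 2.83-fold lower (limma adjusted p = 0.00059). Ccn4 was not called with normexp correction, without background subtraction or with the authors' values. Mstn, which encodes myostatin, a negative regulator of muscle growth, was at -1.30 (limma adjusted p = 0.000936). Igf1r, the insulin-like growth factor receptor (1.52, limma adjusted p = 0.000458), and Tlr4, a receptor for biglycan and decorin (1.45, limma adjusted p = 0.00212), were upregulated. The count of 4 higher was 2 without WT replicate 1 and 2 with the authors' values, where Tlr4 was not called (0.85). With a gene's probes averaged, the count was 3. Some of these genes were not called from their brightest kept probe but had another probe called. Of 8 proteases that cut SLRPs, 1 was lower and 2 were higher, beside the same shares of all genes. Bmp1, which removes the propeptides of several SLRPs and of collagens, was lower (-1.23, limma adjusted p = 0.00948). Without AR113Q replicate 1 it was at -0.87 (limma adjusted p = 0.0115), short of the fold threshold. Adamts4, an aggrecanase (2.59, limma adjusted p = 0.0456), and Mmp14, a membrane-bound collagenase (1.32, limma adjusted p = 0.00993), were higher. The Adamts4 probe was well above background on 2 of the 4 WT arrays, so the size of its difference was not well measured, and it ranged from 0.52 to 4.67 over 19 alternative settings. Its call was lost in 11 of them, among them without WT replicate 2 or 3 or any of the 3 AR113Q arrays, when 1 protease was called higher. With normexp correction, without background subtraction and with the authors' values 0 proteases were called higher in limma, and Mmp14 was below the fold threshold at 0.65, 0.68 and 0.45 (unadjusted p at most 0.05 in each).

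Of 14 other proteoglycans of the matrix and cell surface tested, 6 were lower and 2 higher (median -0.34), beside 13.1% of all genes called lower and 11.2% higher; the share higher was near that of all genes. Vcan, the large hyaluronan-binding proteoglycan versican (-1.66, limma adjusted p = 0.0244), and Sdc2, a syndecan (-1.50, limma adjusted p = 0.000401), were the most lowered, and Prg4, the lubricant lubricin (2.39, limma adjusted p = 0.0105), and Sdc4, another syndecan (1.92, limma adjusted p = 0.00374), were raised. The Vcan probe was well above background on 2 of the 3 AR113Q arrays, and its value was -1.01 without AR113Q replicate 1. Its call was lost in 10 of 20 alternative settings, among them without WT replicate 1, 2 or 4, and with the authors' values 3 of these genes were lower and 0 higher. Prg4 (0.99) and Sdc4 (0.73) were not called with normexp correction either.

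**Figure D4:**
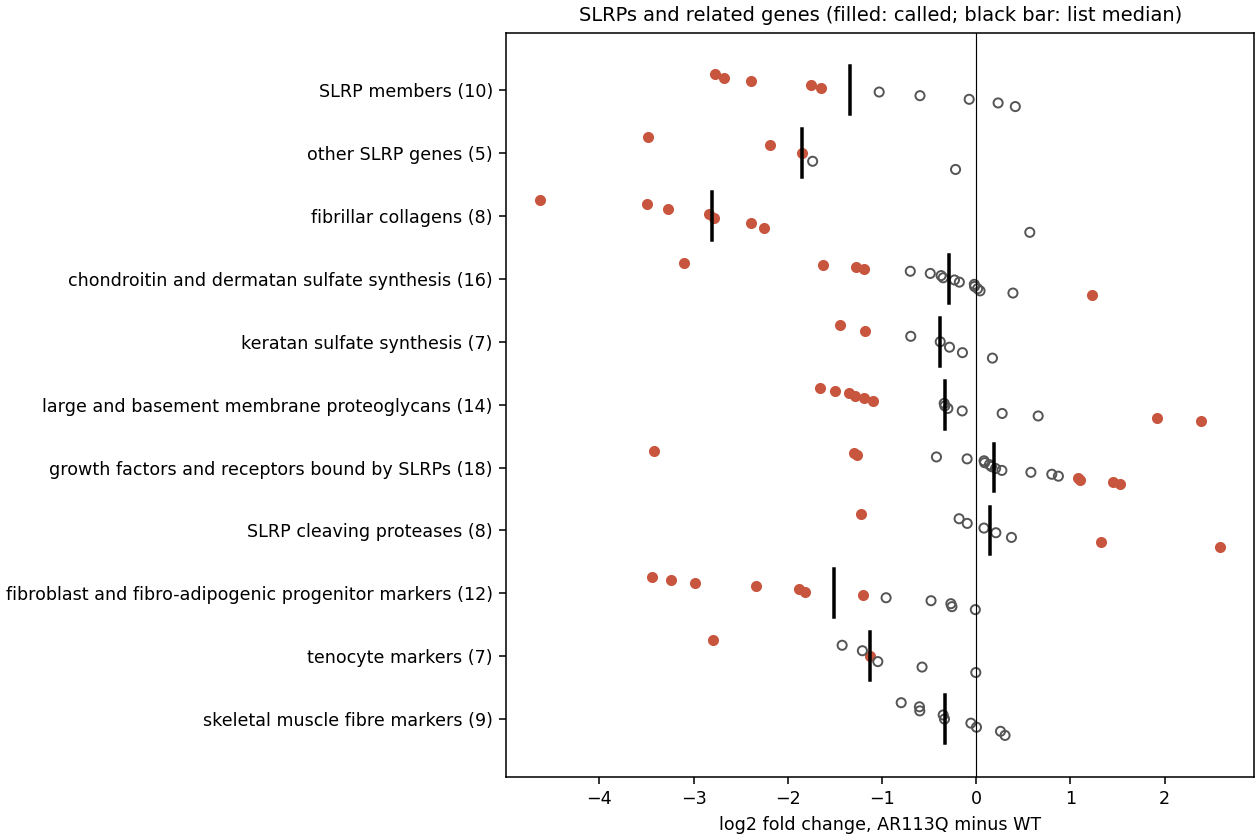
Log2 fold change, AR113Q minus WT (x axis), of the SLRP members, related gene lists and marker lists (y axis, with the number of genes tested); filled points were called and black bars are list medians. The fibrillar collagens (median -2.81) and the fibroblast markers (-1.51) lie to the left with most SLRP members (-1.34), and the growth factors and receptors (0.18) around 0.

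Many markers of fibroblast-like cells, a known source of SLRPs, were lower too. Of 12 markers of fibroblasts and fibro-adipogenic progenitors, 7 were lower, 0 were higher (also 0 at an unadjusted limma p of at most 0.05) and 5 were not called (median -1.51), beside 13.1% of all genes called lower, led by Thy1 (-3.44, limma adjusted p = 8.07e-05) and Clec3b (-3.24, limma adjusted p = 5.82e-05). Pdgfra, the receptor that defines these progenitors, read -0.27 and was not called (limma adjusted p = 0.424). The summed normalized signal of the 12 markers was 42290 to 54190 on the WT arrays and 17520 to 30320 on the AR113Q arrays. Such a sum, here and for the lists below, is of linear signal and is weighted to the brightest probes. It does not show a change of every marker. All 12 were well above background on all 7 arrays. Of 7 tenocyte markers, Tnmd (-2.79, limma adjusted p = 0.0202) and Scx (-1.13, limma adjusted p = 0.0256) were lower (neither was called with the authors' values; Tnmd was well above background on 2 of the 3 AR113Q arrays, and it was -1.79 without AR113Q replicate 1 and -0.79 with the authors' values), and the summed signal of the 7 was 6854 to 16170 in WT and 2535 to 8761 in AR113Q mice, which overlap. Scx lost its call without AR113Q replicate 1, without WT replicate 3 or without WT replicate 4, and 1 of the 7 was then called. The part of these cell types in the SLRP values was not tested.

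Other marker lists had medians below 0, from -0.03 for the endothelial to -1.76 for the adipocyte markers, and 1 marker in them was called higher; beside their counts, 13.1% of all genes tested were called lower and 11.2% higher. Of 5 adipocyte markers 4 were lower, among them Adipoq (-2.71, limma adjusted p = 0.00114) and Retn (-2.31, limma adjusted p = 0.00115), with a summed signal of 32470 to 64720 in WT and 10970 to 19660 in AR113Q mice. That sum mostly followed 1 bright probe, Cfd, with a WT mean of 15.44 against 11.89 for Adipoq. Cfd was itself called lower (-1.76, limma adjusted p = 0.00224). Of 7 macrophage markers 2 were lower (Adgre1, -1.94, limma adjusted p = 0.00152, and Csf1r, -1.15, limma adjusted p = 0.00941), with sums of 8770 to 15670 and 6839 to 9957. Of the 3 kept Csf1r probes, only this 1, the brightest, was called, and with a gene's probes averaged 1 of the 7 markers was called. Without WT replicate 1, Csf1r was at -0.997 (limma adjusted p = 0.0228), just short of the fold threshold. With normexp correction or the authors' values, Adgre1 was not called. Of 7 endothelial markers, Vwf was lower (-1.05, limma adjusted p = 0.00959) and Cldn5 higher (1.30, limma adjusted p = 0.021), with overlapping sums of 6233 to 8076 and 5718 to 8520; neither was called without AR113Q replicate 2, Vwf was not without WT replicate 3 and Cldn5 was not without AR113Q replicate 3. None of 5 smooth muscle and pericyte markers was called (Acta2, the 1 marker lower at an unadjusted limma p of at most 0.05, was at -0.74 and passed the adjusted p but not the fold threshold, and 1 was called without AR113Q replicate 3), and their sums were 7856 to 8775 and 4755 to 7854. None of 9 muscle fibre markers was called in this limma fit (median -0.34; 2 were lower at an unadjusted p of at most 0.05, of which Ckm, at -0.80, passed the adjusted p but not the fold threshold), although 3 were called lower at 75th percentile scaling, and their sums were 834200 to 955900 and 589400 to 910200. The part of these markers in the SLRP values was not tested.

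**Figure D5:**
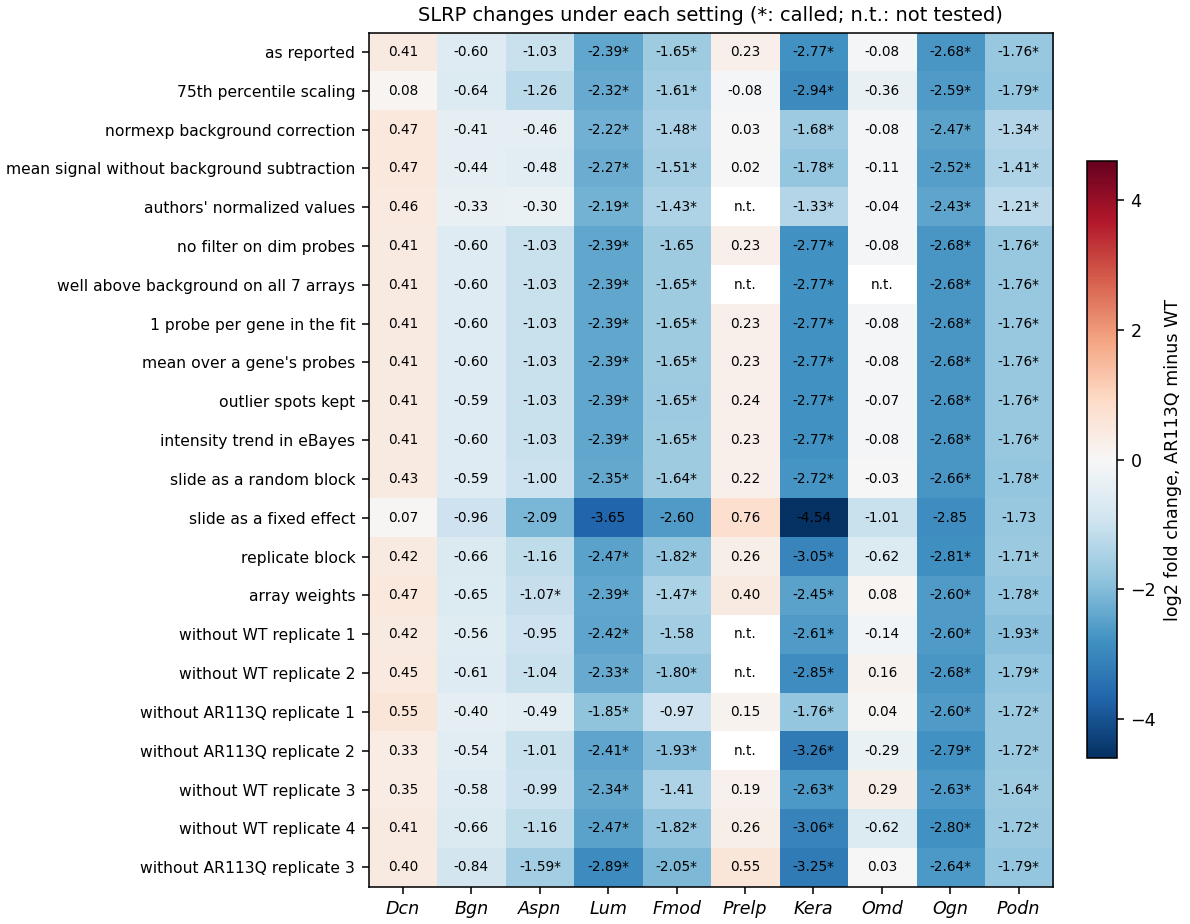
Log2 fold change, AR113Q minus WT (colour and printed value), of each SLRP gene (x axis) in the reported fit and under each alternative (y axis); an asterisk marks a call and n.t. a gene not tested there. Ogn, Podn, Lum and Kera carry an asterisk in every setting except slide as a fixed effect, and Dcn is positive in every setting and never called.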

How the data were processed

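Per the labels and file headers, the authors scanned 7 single-dye Agilent arrays (4 WT, 3 AR113Q) with Feature Extraction 10.7.3.1 and deposited background-subtracted intensity per spot, not normalized between arrays. The authors also deposited normalized log2 values for 18592 probes, including 9 of the 10 SLRP probes (not Prelp). Here log2 of the intensity was taken without control and outlier spots, quantile normalized and averaged per probe. A probe was kept if the files flagged it well above background on 3 or more of the 7 arrays, which left 20991 of 39429. The test was limma (version 3.58.1, R 4.3.3). Gene lists were read from the brightest kept probe. RefSeq accessions of GRCm38.p6 named 28330 probes. On simulated data for this comparison (20948 probes), the fit recovered 83.5% of 200 probes given a log2 change of 2, with 5 false calls. The members and lists were chosen with earlier results of these data known. Named genes were the members, the other SLRP genes, the 2 most lowered and 2 most raised called genes of each list, and the 5 genes most like Dcn. Pdgfra, Col11a2, Col1a1, Col1a2, Col5a2, Col24a1, Acta2, Ckm, Cfd and Plin1 fall outside this rule and were named after their values were seen. Alternatives were other scaling, background correction, filters, probe choice, the authors' values, slide, replicate number, array weights and each array left out; those for the lists were added after the data were examined. A further marker list is not reported here. The number of arrays limits precision.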

Additional observations from a re-analysis of the deposited data

How the results depend on the processing

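Dcn kept its direction and stayed uncalled in 21 of 21 alternative settings, with log2 fold changes of 0.07 to 0.55 (limma adjusted p 0.0154 to 0.869). The number of SLRP genes called lower was 5 and lay between 4 and 6 with each array left out, and the number called higher was 0 in every setting. Where slide was a fixed effect, so that the genotype difference came from the 2 arrays of slide 2, 0 SLRP genes and 0 of all probes were called in limma; Lum (-3.65), Kera (-4.54), Ogn (-2.85) and Podn (-1.73) then had unadjusted p-values of 0.000815, 0.00562, 0.00292 and 0.00567. All probes called numbered 5208, and 2088 with normexp correction, 2264 without background subtraction, 1592 with the authors' values, 9199 with no fold threshold and 4194 to 5326 with each array left out.

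Prelp reversed at 75th percentile scaling (-0.077). Omd reversed with array weights (0.080) and when arrays were left out, between -0.62 and 0.29 (0.16 without WT replicate 2, 0.29 without WT replicate 3, 0.04 without AR113Q replicate 1 and 0.03 without AR113Q replicate 3). The cause was not tested. Of 1079 values for 52 called genes of the related lists, 921 kept their call, 158 lost it and 0 reversed.

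Replicate numbers did not pair the arrays, since the deviations of same-numbered arrays correlated at 0.05, 0.00 and 0.20. Of the 6 arrays with a same-numbered partner, 3 were most like it among replicates 1 to 3 of the other genotype. With the replicate number as a block, Dcn was 0.42 (limma adjusted p = 0.172), 5190 probes and 5 SLRP genes lower were called, and the call changed for 0 of the 10 members. Vcan and Plin1 lost their calls. The other SLRP genes called lower rose from 3 to 4, and the tenocyte markers called lower from 2 to 3.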
